A study of Mus musculus with 12 samples.

Results

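The 6 libraries of 3T3-L1 cells induced in the presence of luteolin or quercetin were taken as 1 class of flavonoid-treated cells and set against the 3 libraries of cells induced without a flavonoid, in gene counts from bulk RNA sequencing. They are 6 of the 12 libraries of the study, 3 with luteolin and 3 with quercetin, and were chosen by the treatment on their labels. 3T3-L1 is a clonal mouse line of preadipocytes with an unmodified genotype. Induced cells received the cocktail called DMI, which is 0.5 mM IBMX, 1 µM dexamethasone and 10 µg/ml insulin in 10% serum, followed by insulin and then serum alone, up to day 6. The same protocol text stands on the 3 untreated libraries, which are told apart by their titles and by the treatment label. Doses and exposure times of the flavonoids, and whether the other cells received their solvent, are not stated in the labels. The class response is therefore an average over 1 dose of each compound that may not match.

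Luteolin is a flavone and quercetin a flavonol, plant polyphenols that share a ring skeleton and differ by a hydroxyl group that quercetin carries in addition. When confluent preadipocytes are induced, early C/EBP factors give way to Pparg and Cebpa, which switch on the genes of fatty acid synthesis, triglyceride storage, lipolysis and hormone secretion. The SREBP and ChREBP factors and insulin raise fatty acid synthesis further. Flavonoids of this kind are widely used in cell culture as antioxidants and kinase inhibitors, and several bind the aryl hydrocarbon receptor.

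Levels are given as CPM, in which a count is divided by the TMM-scaled total of its library, and the level of a gene is compared only with the same gene in other libraries. Fold changes are on the log2 scale and average the luteolin and quercetin responses with equal weight. Tests were edgeR's quasi-likelihood tests with Benjamini-Hochberg adjustment over 14855 genes, and a call is an adjusted p under 0.05. The labels do not state whether the replicates are separate cultures, and the p-values reflect only how far these libraries differ, which may be technical.

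The libraries held 14522182 to 19436796 counts. The summed level of 22 mature adipocyte markers, 21 of them expressed enough to test, was 31087, 35336 and 9578 CPM with DMI. It was 17829, 20031 and 8051 CPM with luteolin, and 10279, 9840 and 3991 CPM with quercetin. It was 771 to 798 CPM in untreated cells. The third DMI library thus lay below both other DMI libraries and inside the range of the class, and the third luteolin and quercetin libraries were lowest in their groups. The class mean was 11670 CPM and the DMI mean 25333 CPM (p = 0.0595, two-sided exact permutation test over 84 splits, smallest possible p 0.0119). In bulk RNA, fewer adipocytes and less adipocyte RNA per cell cannot be told apart. Summed preadipocyte and matrix genes ran from 48237 to 64386 CPM in the class and from 51562 to 72445 CPM with DMI (exact permutation p = 0.607). The mitochondrial share of counts was 2.91% to 4.73% in the class and 2.87% to 4.72% with DMI (exact permutation p = 0.905). Of 8 muscle markers 5 had 0 counts in all 12 libraries, Myod1 and Myog among them, whereas Des had 1933, and the summed level was 3.31 to 14.6 CPM in the class and 8.61 to 27.3 CPM with DMI. Of 13 macrophage, endothelial and epithelial markers Lyz2 had 756 counts, Cd68 230, Tek 222 and Csf1r 159, while Adgre1 had 0, Epcam 1 and Ptprc 4, and the sum was 6.62 to 9.29 CPM in the class and 5.28 to 8.42 CPM with DMI. Of 9 brown and beige markers Ucp1 and Prdm16 had 0 counts, Cox7a1 had 230 and Ppargc1a 6780, and the sum was 25.6 to 41.8 CPM in the class and 28.2 to 40.1 CPM with DMI. Of 9 osteoblast and chondrocyte markers 4 were expressed enough to test. Spp1 had 33877 counts, Sox9 16516 and Runx2 9206, while Bglap had 11, Ibsp 9, Col2a1 8 and Acan 5. The summed level of all 9 was 181 to 512 CPM in the class, 113 to 306 CPM with DMI and 410 to 494 CPM untreated. The 512 CPM is quercetin library 3, where Spp1 alone was at 363 CPM. The part of these differences in the results below was not tested.

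With the flavonoids taken as a class, more genes were called lower than higher, and the lower ones include the desaturase gene Scd1, the lipase gene Mgll and the leptin gene Lep. Of 14855 genes 97 were called (0.653%), 89 lower (0.599%) and 8 higher (0.0539%). The lower genes had a median log2 fold change of -2.22 and the higher ones of 0.78, while the median over all genes tested was 0.000125. Of the lower genes 77 fell at least 2-fold and 53 at least 4-fold, and of the higher genes 2, Prl2c2 and Wisp2, rose at least 2-fold. In 50 of the lower and all 8 of the higher genes the 6 flavonoid libraries lay on 1 side of the 3 DMI libraries, a pattern that 3.73% of all genes showed (1.76% below and 1.97% above). By unadjusted p under 0.05, 2244 genes differed (15.1%), 1448 lower (9.75%) and 796 higher (5.36%).

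The calls sat near the threshold and moved with single libraries. The smallest adjusted p was 0.0112, and 41 of the 97 calls had one above 0.045. Without DMI library 1 no gene was called and without DMI library 2 only Gfra1, whereas 1992 genes were called without DMI library 3. Leaving out luteolin library 1, 2 or 3 gave 13, 25 and 15 calls, leaving out quercetin library 1, 2 or 3 gave 23, 1 (Cpz) and 78, and leaving out untreated library 1, 2 or 3 gave 19, 19 and 25. DESeq2 called 509 genes (3.43%), 407 lower (2.74%) and 102 higher (0.687%), and limma-voom called 4 (0.0269%), Cpz, Plagl1, Nid2 and Clca3a1. All 97 genes kept their sign in each of these fits, which reuse the counts that gave the calls, so this is not independent support. No log2 fold change moved by more than 1.35 times its reported value when 1 library was left out. With 1 library left out, 11 of the 97 genes were called in at least 9 of 12 fits, and 36 in 1 fit only.

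**Figure D1:**
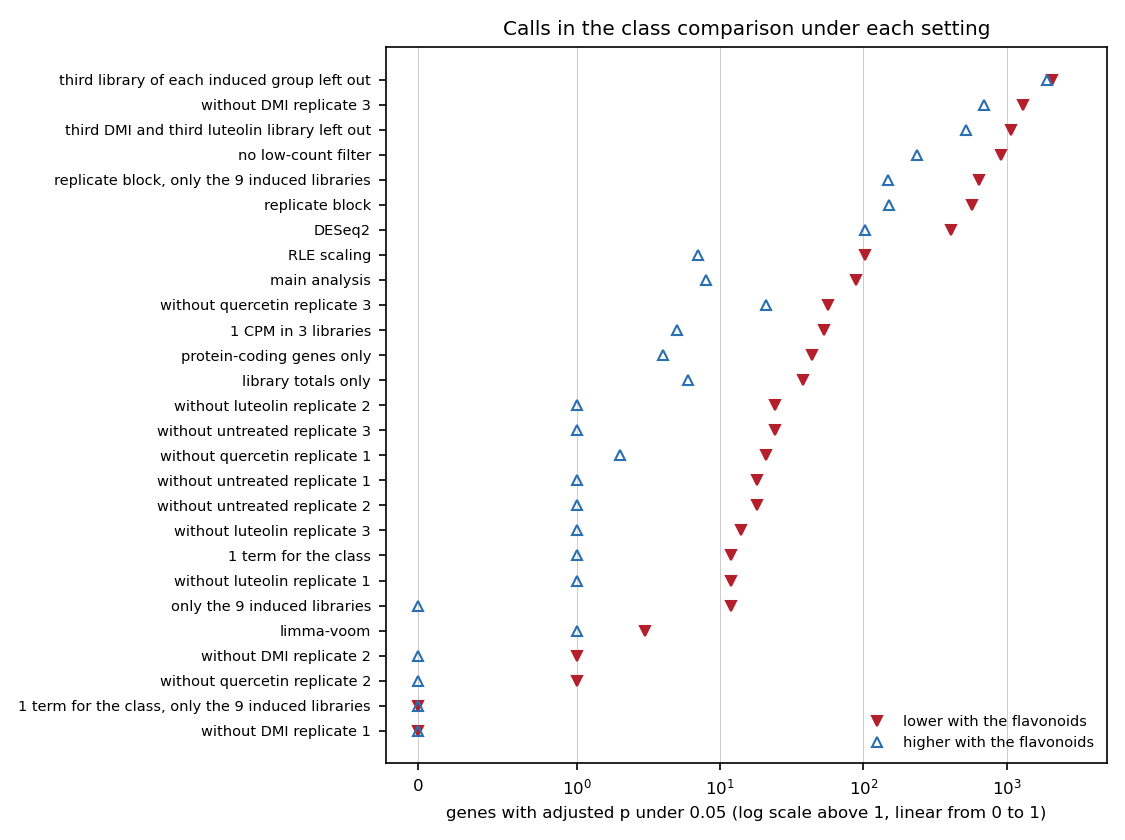
Number of genes called in the class comparison (x axis, log scale above 1 and linear from 0 to 1) under each setting (y axis), with triangles pointing down for genes lower with the flavonoids and open triangles pointing up for genes higher. Lower calls outnumbered higher ones in the main analysis (89 and 8), and the total ran from 0 without DMI library 1 to 3965 when the third DMI, luteolin and quercetin libraries were all left out.

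Fatty acid synthesis and desaturation had 4 of 16 measured genes called lower (Scd1, Fasn, Scd3 and Thrsp), against 0.599% of all genes, and its median log2 fold change was -0.72. Scd1, the desaturase that makes monounsaturated fatty acids, stood at 12874, 13632 and 4599 CPM in the DMI libraries, 3070.2, 3882 and 1895 CPM with luteolin and 2001, 1684 and 1290.3 CPM with quercetin. Every flavonoid library lay below every DMI library, and the lowest DMI library, the third, was close to the highest luteolin one. Scd1 fell 4.69-fold (log2 -2.23, SE 0.32, adjusted p = 0.0150), and untreated cells held 125, 119.8 and 212 CPM.

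Fasn, the synthase that builds palmitate, measured 2654, 2785 and 1293 CPM with DMI, 1195, 1344 and 843 CPM with luteolin and 905, 571 and 703 CPM with quercetin. Luteolin library 2 exceeded DMI library 3, so the groups overlapped, and all 3 quercetin libraries lay below the DMI ones. The log2 fold change was -1.31 (SE 0.23, adjusted p = 0.0355). Thrsp, a small nuclear protein tied to lipogenesis, was at 349, 443 and 168 CPM with DMI and at 92.4, 116 and 69.7 CPM with luteolin. With quercetin it was at 100.3, 90.7 and 25 CPM, so the class stayed under all DMI libraries, and its log2 fold change was -1.97 (SE 0.40, adjusted p = 0.0494). Scd3, a neighbouring desaturase gene, was low in every library, at 9.50, 12.5 and 3.08 CPM with DMI and 1.10 to 2.79 CPM in the class, with log2 fold change -2.03 (SE 0.38, adjusted p = 0.0441). The acetyl-CoA carboxylase genes Acaca and Acacb, the enzymes that supply malonyl-CoA, had log2 fold changes of -0.81 and -0.95 and were not called (adjusted p = 0.0614 and 0.0823).

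Triglyceride assembly had 2 of 13 genes called, both lower, against 0.599% of all genes called lower, with a median of -0.82. Pnpla3, which encodes a lipid droplet protein that acts on triglycerides, went from 39.4, 45.5 and 10.5 CPM with DMI to 8.03, 8.85 and 3.19 CPM with luteolin and 4.91, 2.93 and 1.72 CPM with quercetin. No flavonoid library reached the lowest DMI library, and the log2 fold change was -2.77 (SE 0.43, adjusted p = 0.0266). Pck1, which supplies the glycerol backbone by glyceroneogenesis, was at 61.7, 59.6 and 15.8 CPM with DMI and at 2.95 to 18.5 CPM in the class, overlapping DMI library 3 (log2 fold change -2.45, SE 0.45, adjusted p = 0.0494). Dgat2, which adds the last fatty acid to triglycerides, was at 559.6, 662 and 156 CPM with DMI and 36.7 to 292 CPM in the class, and its value of -1.67 (SE 0.44, adjusted p = 0.108) did not pass.

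The promoters of 3 of these genes are shown because the genes fell together and act in lipid synthesis. Each run is the 250 bases before the gene start, 5′ to 3′ on the gene's strand, from RefSeq on GRCm38.p6, with every CCAAT, read on either strand, in capitals.
Fasn (chr11:120824548-120824797, minus strand): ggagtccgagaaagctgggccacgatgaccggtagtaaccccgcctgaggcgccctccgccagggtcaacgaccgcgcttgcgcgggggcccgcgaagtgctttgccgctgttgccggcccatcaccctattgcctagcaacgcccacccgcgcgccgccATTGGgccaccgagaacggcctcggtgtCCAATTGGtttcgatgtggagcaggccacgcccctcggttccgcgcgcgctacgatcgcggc
Thrsp (chr7:97417551-97417800, minus strand): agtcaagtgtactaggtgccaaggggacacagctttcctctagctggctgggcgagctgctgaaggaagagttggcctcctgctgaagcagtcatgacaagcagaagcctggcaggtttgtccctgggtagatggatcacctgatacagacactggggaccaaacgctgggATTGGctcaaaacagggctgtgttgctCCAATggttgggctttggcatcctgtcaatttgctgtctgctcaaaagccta
Pnpla3 (chr15:84167566-84167815, plus strand): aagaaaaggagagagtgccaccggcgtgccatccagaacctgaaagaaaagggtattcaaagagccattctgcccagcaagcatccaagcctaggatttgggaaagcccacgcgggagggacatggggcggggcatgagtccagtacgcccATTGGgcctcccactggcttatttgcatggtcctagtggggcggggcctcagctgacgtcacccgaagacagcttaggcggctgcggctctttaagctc
CCAAT, the box that NF-Y binds, occurs 3 times upstream of Fasn, where 2 copies overlap, 2 times upstream of Thrsp and 1 time upstream of Pnpla3. Of the 77 protein-coding genes called lower, 61 had a promoter in the RefSeq table, and 22 of them held a CCAAT on either strand (36.1%), against 37.5% of 27025 genes. The E-box CACGTG, the same on both strands, was in 5 of the 61 (8.2%) and in 6.86% of all genes. These shares describe letters in a window and say nothing about binding.

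Lipolysis and its control had 3 of 10 measured genes called, all lower, against 0.599% of all genes called lower. It had the lowest median of the fat metabolism lists, -1.79. Mgll, the lipase that splits monoacylglycerol in the last step, was at 56.3, 66.6 and 14.2 CPM with DMI, 7.74, 13.4 and 4.92 CPM with luteolin and 4.26, 3.08 and 2.70 CPM with quercetin. The highest flavonoid library, luteolin 2, lay just under DMI library 3. Mgll fell 8.43-fold, with log2 fold change -3.08 (SE 0.39, adjusted p = 0.0112). Hcar1, a lactate receptor that restrains lipolysis, measured 71.5, 74.2 and 15.5 CPM with DMI, 19.9, 25 and 9.78 CPM with luteolin and 5.24, 3.44 and 4.05 CPM with quercetin. Luteolin libraries 1 and 2 exceeded DMI library 3, and the log2 fold change was -2.61 (SE 0.41, adjusted p = 0.0266). Pde3b, the phosphodiesterase through which insulin restrains lipolysis, was at 67.8, 70.1 and 15.5 CPM with DMI and at 7.99 to 27.4 CPM in the class (log2 fold change -1.90, SE 0.39, adjusted p = 0.0494). The remaining 7 genes of the list were also lower at an unadjusted p under 0.05, as were 9.75% of all genes. Among the 7 were G0s2 and Adrb3 at -2.02 and -1.89.

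**Figure D2:**
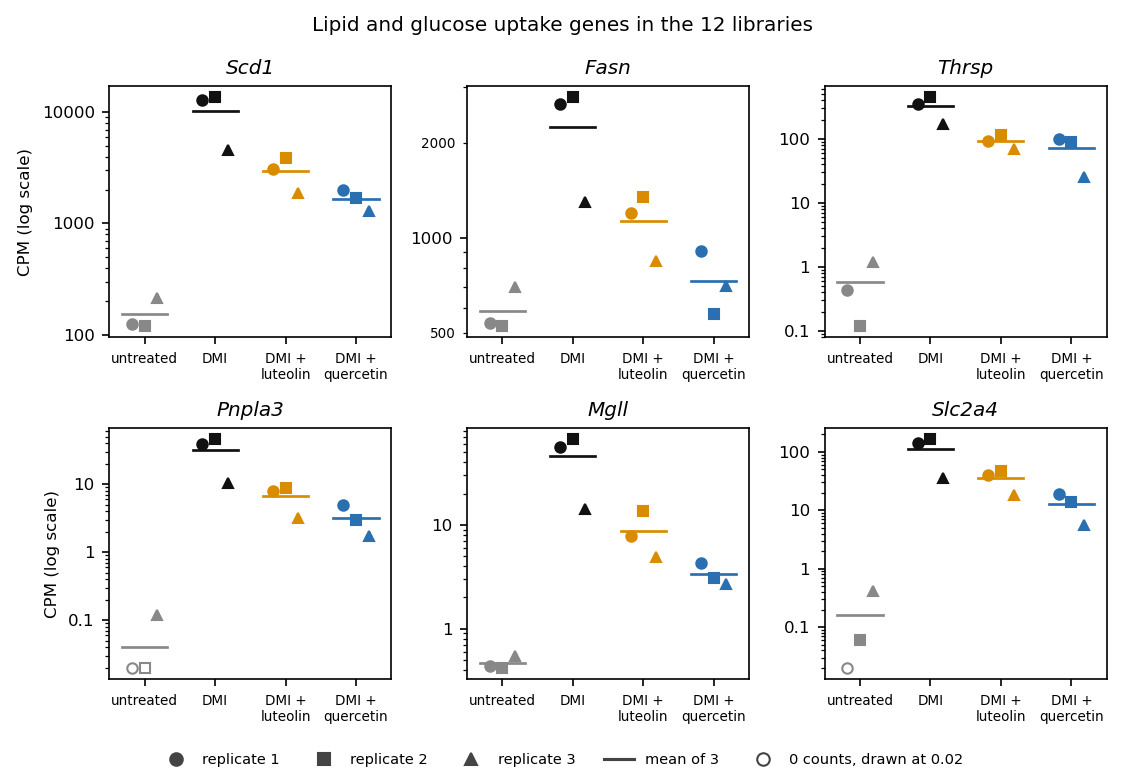
CPM on a log scale (y axis) in each of the 12 libraries by group (x axis) for 6 genes of lipid and glucose handling; symbols mark the replicate number, lines the mean of 3, and open symbols 0 counts drawn at 0.02. In all 6 genes the third DMI library (triangle) is the lowest of its group, and the quercetin mean is below the luteolin mean.

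The lists of fatty acid uptake and of insulin response each had 1 gene called, and it was lower. Over all genes 0.599% were called lower, a smaller share than 1 call makes in lists this short. Ffar4, a receptor for long-chain fatty acids, was the 1 called gene of 10 in fatty acid uptake and binding, with 12.6, 13.6 and 3.20 CPM with DMI and 0.699, 3.72 and 2.40 CPM with luteolin. With quercetin it was at 0.218, 0.0505 and 0.307 CPM, and the log2 fold change was -3.89 (SE 0.57, adjusted p = 0.0266). Luteolin library 2 exceeded DMI library 3, so the separation was complete for quercetin only. Slc2a4, the insulin-responsive glucose transporter, was the 1 called gene of 14 in insulin response and glucose uptake. It stood at 142, 164 and 36 CPM with DMI, 40.6, 47 and 18.3 CPM with luteolin and 18.8, 13.9 and 5.65 CPM with quercetin, with 2 luteolin libraries above DMI library 3. Its log2 fold change was -2.42 (SE 0.45, adjusted p = 0.0406).

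Among 9 adipokines 2 were called lower, against 0.599% of all genes, and the median was -1.23. Lep, the leptin gene, had 108 counts in the 3 DMI libraries and 12 in the 6 flavonoid libraries, or 2.52, 3.91 and 0.677 CPM with DMI and 0 to 0.295 CPM in the class. It was not counted in 1 quercetin library, and every flavonoid library lay below every DMI library (log2 fold change -4.44, SE 0.64, adjusted p = 0.0266). Retn, the resistin gene, was at 313, 389 and 65 CPM with DMI, 89, 122 and 40.6 CPM with luteolin and 43, 33.5 and 16 CPM with quercetin. Its groups overlapped at DMI library 3, and the log2 fold change was -2.33 (SE 0.47, adjusted p = 0.0494). Adipoq, the adiponectin gene, was at 1553, 1879.7 and 472 CPM with DMI and 131 to 1345 CPM in the class and was not called (-0.97, SE 0.56, adjusted p = 0.445).

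Of 18 adipogenic transcription factors 1 was called lower, against 0.599% of all genes. This was Klf15, which activates Slc2a4. It stood at 53, 64.9 and 12.3 CPM with DMI, 17.1, 19.9 and 4.86 CPM with luteolin and 7.31, 5.31 and 2.70 CPM with quercetin, overlapping at DMI library 3, with log2 fold change -2.36 (SE 0.47, adjusted p = 0.0494). Pparg, the central factor of the fat cell program, was at 346, 357 and 101 CPM with DMI, 204, 231 and 97.6 CPM with luteolin and 114, 126 and 60.1 CPM with quercetin, and its value of -1.01 (SE 0.36, adjusted p = 0.217) did not pass. Cebpa (-1.08, adjusted p = 0.239), Srebf1 (-0.50, adjusted p = 0.284) and Cebpb (-0.09, adjusted p = 0.893) did not pass either. The list median was -0.48.

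Most broad fat cell markers were lower without passing the adjusted threshold. Of 21 mature adipocyte markers 4 were called lower (Lep, Slc2a4, Pck1 and Retn, all named above) and 18 were lower at an unadjusted p under 0.05. The shares over all genes were 0.599% and 9.75%. The median of the markers was -1.48. Fabp4, a fatty acid carrier, ran from 205 to 2076 CPM in the class against 2958, 3896 and 840.3 CPM with DMI and was not called (-1.12, SE 0.59, adjusted p = 0.401). The same held for Lpl, which frees fatty acids from lipoproteins (-0.80, SE 0.30, adjusted p = 0.245), and for Cd36, a fatty acid importer (-1.24, SE 0.46, adjusted p = 0.235). Lipid droplet coat and fusion genes had 0 of 9 called by edgeR and by limma-voom, 1 by DESeq2 and 4 at an unadjusted p under 0.05, with Cidec at -2.06 (adjusted p = 0.155) and Plin1 at -1.28 (adjusted p = 0.317). No difference in size between the lists was tested.

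The largest falls with no overlap between the groups, among protein-coding genes at 5 CPM or more, included several genes outside these lists. The gene 2610528A11Rik was at 10.9, 12.5 and 3.14 CPM with DMI and 0.546 to 1.33 CPM in the class, a 10.4-fold fall (-3.38, SE 0.42, adjusted p = 0.0112). Camp, which encodes the antimicrobial peptide cathelicidin, was at 10.7, 14.1 and 4.93 CPM with DMI, 1.69, 4.37 and 2.00 CPM with luteolin and 0.982, 0.809 and 0.245 CPM with quercetin (-2.85, SE 0.40, adjusted p = 0.0150). Apoc1, an apolipoprotein gene, was at 30.3, 55 and 16.4 CPM with DMI and 1.53 to 11.5 CPM in the class (-2.36, SE 0.43, adjusted p = 0.0375). Others were Mtss1, an actin regulator (-2.41), Smyd1, a methyltransferase known from striated muscle (-2.36), and the membrane protein gene Tmem182 (-2.34). In each of these 6 genes the third DMI library was the lowest DMI library, as it was for the adipocyte markers.

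Several lower genes were already at a similar or higher level in untreated cells, so their levels with the flavonoids lay below both other groups. Of these, Cpz, Plagl1 and Nrk were chosen for description after their values were seen. Cpz, a secreted carboxypeptidase gene (chr5:35502218-35525698, GRCm38), was at 9.95, 10.5 and 7.67 CPM untreated, 7.11, 9.39 and 6.28 CPM with DMI, 1.75, 1.71 and 1.86 CPM with luteolin and 1.42, 2.33 and 0.675 CPM with quercetin. The 6 flavonoid libraries were the 6 lowest of all 12, and the log2 fold change was -2.22 (SE 0.27, adjusted p = 0.0112). Cpz was called in 10 of the 12 fits without 1 library, the most of any gene. Plagl1, an imprinted zinc finger factor gene, was at 53.7, 55.2 and 47.3 CPM untreated and 42.9, 34.7 and 26.9 CPM with DMI. It fell to 11.5, 10.03 and 10.6 CPM with luteolin and 11.9, 11.8 and 20.4 CPM with quercetin, again below all other libraries (-1.47, SE 0.18, adjusted p = 0.0112). Nrk, a kinase gene, was at 7.74, 6.23 and 9.05 CPM with DMI and 1.16 to 3.74 CPM in the class, against 11.6, 13.4 and 12 CPM untreated (-1.82, SE 0.31, adjusted p = 0.0306).

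The imprinted noncoding RNA H19 was at 36.1, 41 and 38.5 CPM untreated, 15.8, 19.5 and 21.2 CPM with DMI, 5.59, 4.19 and 4.99 CPM with luteolin and 14.7, 13.5 and 7.42 CPM with quercetin. All 6 flavonoid libraries lay below the DMI ones, with quercetin between luteolin and DMI, and the log2 fold change was -1.30 (SE 0.19, adjusted p = 0.0159). Gfra1, a GDNF receptor gene, was at 25.6, 17.3 and 29.1 CPM with DMI, 10.2, 10.3 and 10.7 CPM with luteolin and 16, 18.2 and 16.9 CPM with quercetin (-0.85, SE 0.14, adjusted p = 0.0296). Quercetin library 2 lay above DMI library 2, so only the luteolin libraries were apart. Prokr1, a prokineticin receptor gene, was at 14.3, 12.6 and 17.4 CPM with DMI and 4.54 to 11.5 CPM in the class, without overlap (-0.93, SE 0.17, adjusted p = 0.0348).

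Averaging the compounds brought genes past the threshold that passed for neither compound alone in the same fit. Such genes include Fap, a fibroblast surface protease, at 11.9, 9.93 and 7.33 CPM with DMI and 3.26 to 6.14 CPM in the class (-1.12, SE 0.22, adjusted p = 0.0485). Its adjusted p was 0.400 for luteolin and 0.0590 for quercetin. Gpd2, the mitochondrial glycerol phosphate dehydrogenase, was at 111, 118 and 75.5 CPM with DMI and 54.8 to 70.2 CPM in the class (-0.68, SE 0.14, adjusted p = 0.0494), with 0.454 and 0.0506 for the single compounds. Cox8b, a subunit of cytochrome oxidase found in muscle and brown fat, fell from 15.9, 21.4 and 7.88 CPM to 1.23 to 4.90 CPM (-2.17, SE 0.42, adjusted p = 0.0485). In the authors' deposited tests the Cox8b adjusted p was 0.000493 for luteolin and 0.000165 for quercetin. There it was 0.0924 and 0.0211 for Fap, and 0.239 and 0.0899 for Gpd2. Passing for neither compound alone thus holds for the fit used here. Luteolin alone gave 3 calls (0.0202% of genes), H19, Gfra1 and Plagl1, and quercetin alone 150 (1.01%). Of the 97 class calls 78 were also called for quercetin alone, 3 for luteolin alone and 17 for neither. Most class calls were thus quercetin calls, and a call for the class does not show a response to both compounds. These comparisons share the DMI libraries, and the class value is the mean of the 2 single ones, so they are not independent.

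The 8 genes that rose did so by smaller amounts. Clca3a1, an accessory protein gene of chloride channels, was at 105, 91.9 and 112 CPM with DMI, 168, 170.3 and 164 CPM with luteolin and 187, 176 and 169 CPM with quercetin. The flavonoid libraries were tightly grouped above all others, untreated ones included (61.4, 61 and 54 CPM), and the log2 fold change was 0.75 (SE 0.10, adjusted p = 0.0124). Prl2c2, a proliferin gene, was at 3.40, 2.12 and 4.31 CPM with DMI and 7.14 to 13.9 CPM in the class (1.59, SE 0.29, adjusted p = 0.0398). Prl2c2 has near-identical copies, so its count is uncertain. Wisp2, a secreted matrix-associated protein gene, was at 5.79, 4.66 and 8.68 CPM with DMI and 10.2 to 16.9 CPM in the class, close to the 12.6, 11.1 and 12.7 CPM of untreated cells (1.05, SE 0.21, adjusted p = 0.0494). Snrpe, a core spliceosomal protein gene, was at 19.3, 15.3 and 23.7 CPM with DMI and 29.3 to 46 CPM in the class (0.88, SE 0.15, adjusted p = 0.0306). Slc29a1, a nucleoside transporter gene, was at 92.4, 94.3 and 132 CPM with DMI and 133 to 216 CPM in the class (0.71, SE 0.14, adjusted p = 0.0494). The other rises were Pdlim1, a cytoskeletal adaptor (0.79), Atp6v0c, a subunit of the lysosomal proton pump (0.78), and Pdp1, which activates pyruvate dehydrogenase (0.50).

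**Figure D3:**
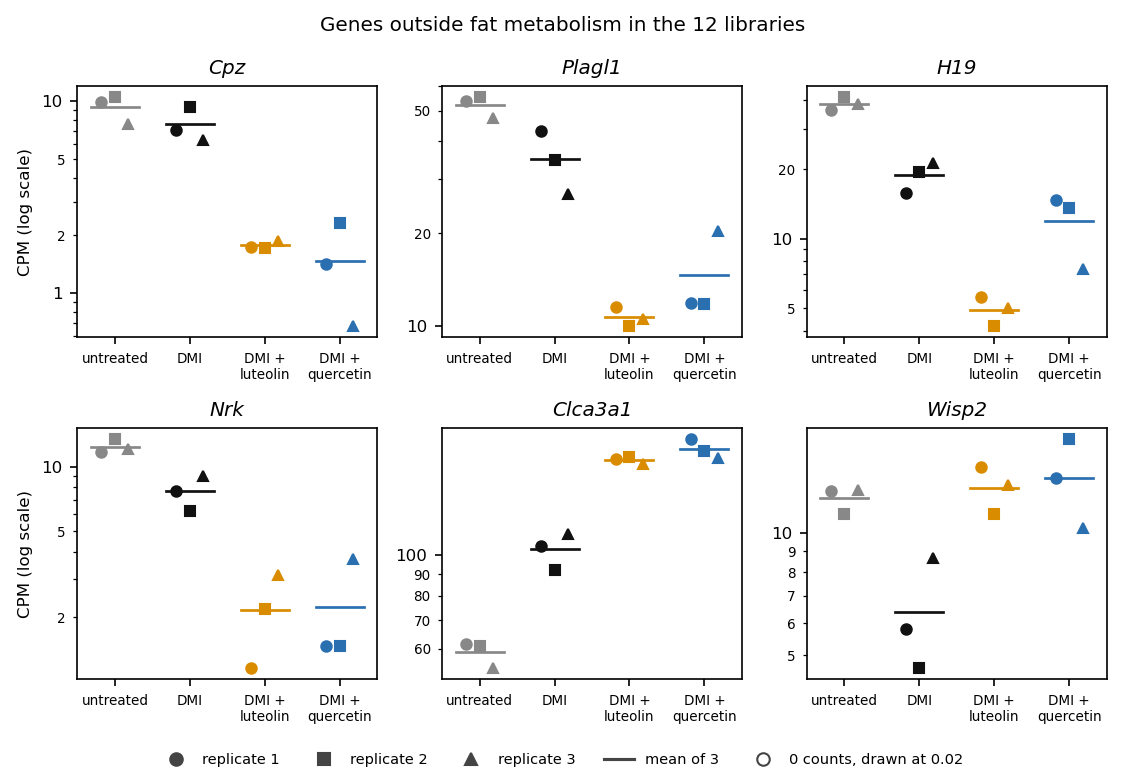
CPM on a log scale (y axis) in each of the 12 libraries by group (x axis) for 4 genes that fell and 2 that rose with the flavonoids; symbols mark the replicate number and lines the mean of 3. The luteolin and quercetin libraries lie below all DMI and untreated libraries in Cpz, Plagl1, H19 and Nrk and above all of them in Clca3a1.

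Lists of mitochondrial fuel use and cholesterol synthesis had no call by edgeR. Of 19 fatty acid oxidation genes 17 had an unadjusted p under 0.05, all lower, 5 were called by DESeq2 and 0 by limma-voom, and the median was -0.72. Of 20 genes of branched-chain amino acid catabolism and the citric acid cycle 18 were lower at an unadjusted p under 0.05, 3 were called by DESeq2 and 0 by limma-voom, with a median of -0.78. The pyruvate carboxylase gene Pcx stood at -1.09 (adjusted p = 0.284). Of 21 nuclear genes of the respiratory chain 9 were lower at an unadjusted p and 0 were called by DESeq2 or limma-voom (median -0.49). Of 20 cholesterol synthesis genes 6 were lower at an unadjusted p, 2 by DESeq2 and 0 by limma-voom (median -0.28), with Insig1, a sterol sensor, at -0.58 (adjusted p = 0.178). The single-sided counts stand against 9.75% of all genes lower at an unadjusted p under 0.05 and 2.74% called lower by DESeq2.

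Lists tied to actions often ascribed to flavonoids had no call either by edgeR. At an unadjusted p under 0.05, 5.36% of all genes were higher and 9.75% lower. DESeq2 called 0.687% of all genes higher and 2.74% lower. Of 6 measured genes of the aryl hydrocarbon receptor and its targets 0 had an unadjusted p under 0.05, and DESeq2 and limma-voom called 0. The median was 0.15, and it was 0.02 without DMI library 2, 0.23 without DMI library 3 and -0.0023 without quercetin library 3. Cyp1b1, its target, was at 282, 268 and 366 CPM with DMI and 321 to 495 CPM in the class (0.24, SE 0.15, adjusted p = 0.491), and Cyp1a1 was too low to test. Of 19 NRF2 antioxidant targets 2 were higher at an unadjusted p under 0.05, Fth1 and Nqo1, and 2 lower, Cat and G6pdx. DESeq2 called 2 higher and 1 lower, limma-voom called 0, and the median was -0.03, with a sign that changed when single libraries were left out and with library totals only. Nqo1, a quinone reductase gene, was at 14.1, 14.9 and 13.7 CPM with DMI, 18.9, 18.6 and 26.7 CPM with luteolin and 21.7, 22.9 and 20.004 CPM with quercetin (0.59, SE 0.14, adjusted p = 0.0806). Fth1, the ferritin heavy chain gene, was at 2758, 2692 and 2748 CPM with DMI and 3319 to 4753 CPM in the class (0.48, SE 0.11, adjusted p = 0.0806). In both genes every flavonoid library lay above every DMI library, a pattern that 1.97% of all genes showed, and neither passed. Hmox1, the heme oxygenase gene, was at 0.06 (adjusted p = 0.920).

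The counts that follow stand beside 5.36% of all genes higher and 9.75% lower at an unadjusted p under 0.05. For DESeq2 the shares were 0.687% and 2.74%. Of 14 inflammatory genes 6 were higher and 1 lower at an unadjusted p, with 0 calls by edgeR and limma-voom and 2 higher by DESeq2. The median was 0.56, or 0.36 without DMI library 2 and 0.97 without DMI library 3. Cxcl12, a chemokine gene, was at 1069, 1038 and 1375 CPM with DMI and 1422 to 1817 CPM in the class, without overlap (0.46, SE 0.12, adjusted p = 0.114). Of all genes 1.97% had every flavonoid library above every DMI library. Of 20 interferon response genes 7 were lower at an unadjusted p, 2 by DESeq2 and 0 by edgeR or limma-voom. Their median was -0.48 with all libraries and 0.14 without DMI library 3, which was the highest DMI library for Oasl2 (73.5, 40.01 and 166 CPM) and Bst2 (96.5, 75.8 and 283 CPM). Of 12 p53 targets 4 were higher and 1 lower at an unadjusted p, with 1 lower call by DESeq2 and a median of 0.24. The glucocorticoid response list had 3 higher and 4 lower of 13 (median -0.07), and 2 were lower by DESeq2. ATF4 and endoplasmic reticulum stress genes had 4 lower of 17 (median -0.02) and cell cycle genes 2 higher and 1 lower of 25 (median -0.03), both with 0 by DESeq2. The medians of these last 2 lists changed sign with library totals only and when single libraries were left out, with ranges of -0.09 to 0.08 and -0.03 to 0.05. In these last 4 lists edgeR and limma-voom called 0.

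The remaining lists had 0 calls by edgeR and by limma-voom. Their counts also stand beside 5.36% of all genes higher and 9.75% lower at an unadjusted p under 0.05, and 0.687% and 2.74% by DESeq2. Contractile and serum response genes had 1 of 12 higher at an unadjusted p (median 0.33), lysosome and autophagy genes 2 of 19 higher (median 0.18), and Wnt and TGF-beta genes 1 higher and 2 lower of 16 (median 0.13), with 0 by DESeq2 in all 3. With 1 library left out the contractile median ran from 0.18 without DMI library 2 to 0.60 without DMI library 3, and the Wnt and TGF-beta median from 0.02 to 0.29 without the same libraries. Preadipocyte and matrix genes had 3 higher and 1 lower of 24 (median -0.07, or 0.16 without DMI library 3, 0 by DESeq2), and Dlk1, a preadipocyte marker, was at 1739, 1562 and 3120.4 CPM with DMI, 1209, 995 and 2039 CPM with luteolin and 1996, 2352 and 3321 CPM with quercetin. Of 4 osteoblast and chondrocyte markers 1, Sox9, was higher at an unadjusted p and by DESeq2 (median 0.46, from 0.26 without DMI library 2 to 0.71 without DMI library 3). Of 2 brown and beige markers 1, Cox7a1, was lower by both (median -0.77). Of the other cell types, 1 muscle marker, Des, was tested (-1.21, unadjusted p under 0.05), and of 4 macrophage, endothelial and epithelial markers 1, Lyz2, was higher at an unadjusted p and by DESeq2 (median -0.03). Lyz2 was at 1.26, 2.67 and 2.22 CPM with DMI and 3.07 to 6.07 CPM in the class.

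The list values moved with single DMI libraries. Without DMI library 1 or DMI library 2, none of the listed genes was called by edgeR. Without DMI library 3, 8.52% of all genes were called lower, and lower calls numbered 10 of 10 in lipolysis, 11 of 16 in fatty acid synthesis, 9 of 13 in triglyceride assembly, 7 of 9 among adipokines and 17 of 21 among mature adipocyte markers. In the same fit they numbered 17 of 19 in fatty acid oxidation, 19 of 20 in branched-chain amino acid catabolism and the citric acid cycle and 10 of 21 in the respiratory chain. Higher calls without that library, at 4.55% of all genes, numbered 9 of 14 among inflammatory genes, 5 of 12 among contractile genes, 6 of 19 in lysosome and autophagy, 6 of 24 among preadipocyte and matrix genes and 4 of 16 in Wnt and TGF-beta signalling. Without DMI library 2 the medians were smaller in size by over 1.5 times for adipogenic transcription factors (-0.30), fatty acid uptake (-0.42), fatty acid oxidation (-0.48), the respiratory chain (-0.27) and lipid droplet genes (-0.28).

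**Figure D4:**
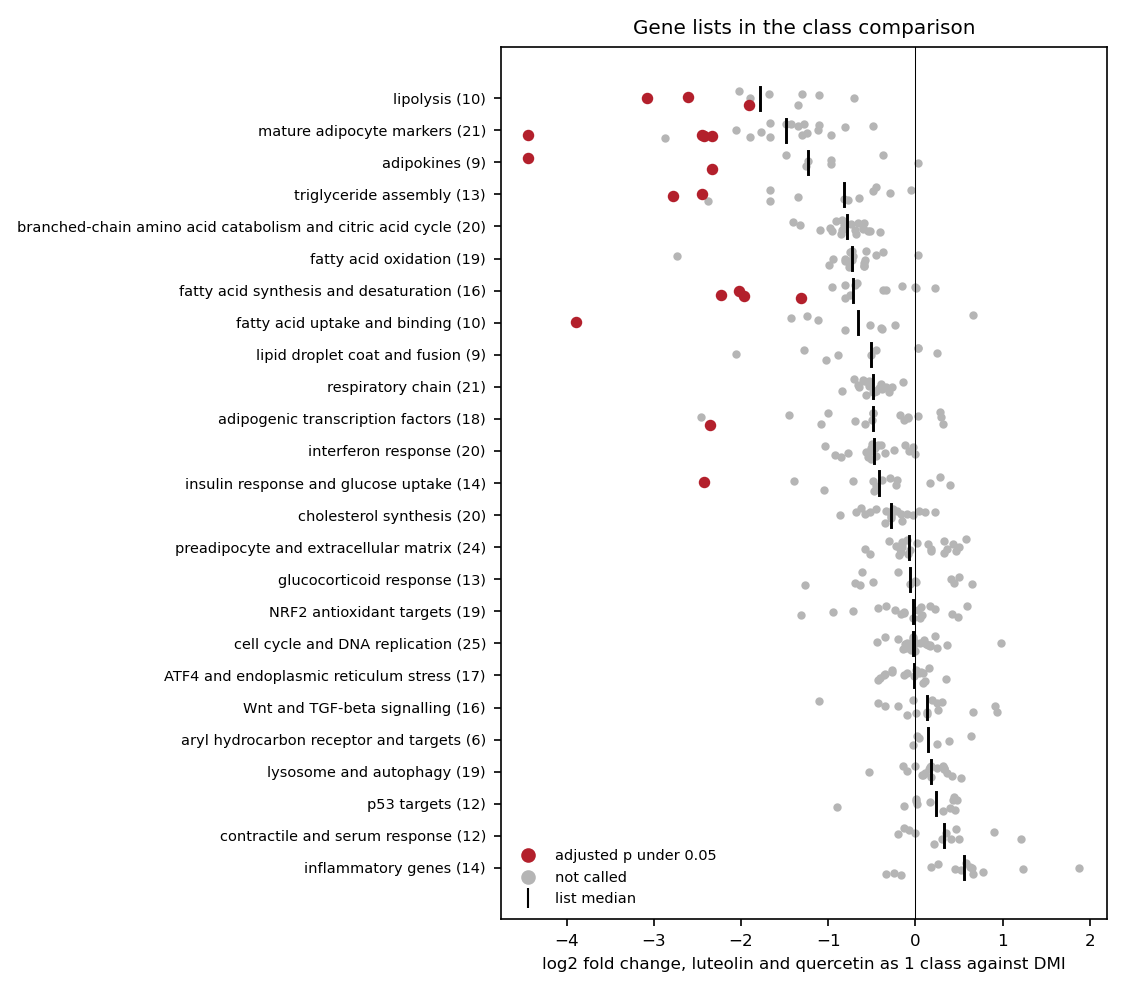
Log2 fold change of each measured member (points, red where called) and the list median (black bar) in the class comparison (x axis) for the gene lists with at least 5 measured members (y axis, number measured in brackets). All called members lie left of 0, in lists of fat synthesis, lipolysis, uptake, hormones and fat cell identity, and the lipolysis list has the lowest median, -1.79.

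Within the class the compounds were set against each other directly, as the 1 pair there is. No gene was called between luteolin and quercetin by edgeR or limma-voom (smallest adjusted p = 0.541 by edgeR), while 1327 genes had an unadjusted p under 0.05 (8.93%) and DESeq2 called 3, H19, Ffar4 and 4933412E12Rik. By edgeR 14 genes were called with the replicate number as a block, 123 with that block in the 9 induced libraries, 450 without a filter on low counts and 2081 without the third DMI, luteolin and quercetin libraries. Without quercetin library 1 edgeR called 10, and without luteolin library 3 or quercetin library 3 it called 1, mt-Nd3 and H19. In the authors' deposited table the quercetin against luteolin adjusted p was 0.0111 for Ffar4, 5.22e-05 for Hcar1 and 0.0671 for H19. Among other class calls, chosen after their values were seen, it was 0.000399 for Klb, 0.000632 for Sema3g and 0.000736 for Slc36a2. These last 3 genes were lower with quercetin. Failing the threshold does not show that the compounds act alike, since the intervals were wide and the doses are not known to match.

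Among the 89 lower genes luteolin stood above quercetin in 78 and below it in 11, compared with 48.4% of all genes in which luteolin was above. For Scd1 the luteolin minus quercetin difference was 0.83 (95% interval -0.00 to 1.66) on the log2 scale, for Fasn 0.63 (95% interval 0.03 to 1.24) and for Mgll 1.38 (95% interval 0.30 to 2.46). For Hcar1 it was 2.10 (95% interval 0.95 to 3.25, adjusted p = 0.541) and for Ffar4 3.56 (95% interval 1.65 to 5.47, adjusted p = 0.541), which means that quercetin had the lower level. H19 went the other way at -1.27 (95% interval -1.78 to -0.77, adjusted p = 0.541), as did Gfra1 at -0.71 (95% interval -1.08 to -0.35) and Prokr1 at -0.86 (95% interval -1.29 to -0.42). Genes with narrow intervals around 0 were Clca3a1 at -0.08 (95% interval -0.33 to 0.16), Pdp1 at -0.04 (95% interval -0.28 to 0.20) and Atp6v0c at 0.02 (95% interval -0.31 to 0.35). For Cpz the difference was 0.25 (95% interval -0.52 to 1.02) and for Nrk -0.04 (95% interval -0.90 to 0.82), intervals that leave room for a sizeable difference in either direction. The summed mature adipocyte marker level was also lower with quercetin than with luteolin (the values by library stand above), and its part in these differences was not tested.

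**Figure D5:**
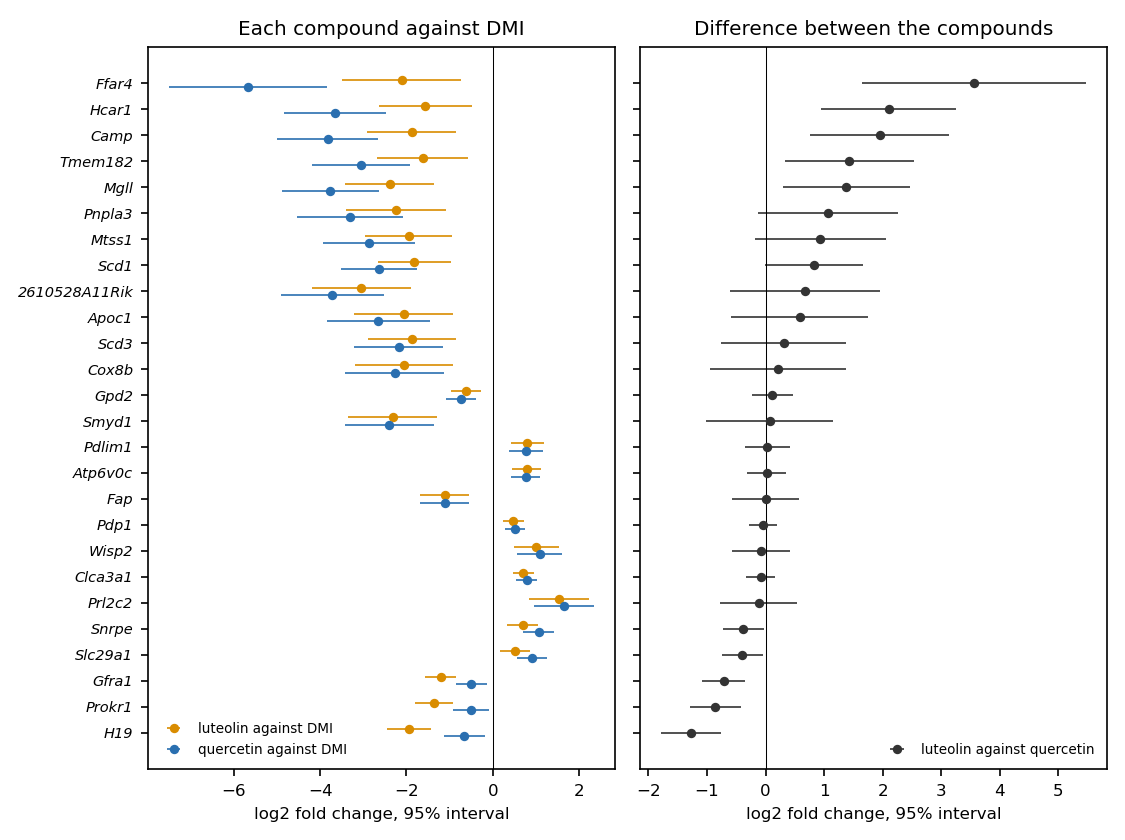
Log2 fold change with 95% interval (x axes) of luteolin and of quercetin against DMI (left) and of luteolin against quercetin (right) for genes called in the class comparison (y axis) that had the largest changes, passed for neither compound alone or had the smallest p between the compounds. Most lower genes lie right of 0 in the right panel, Ffar4 farthest at 3.56, and H19 lies farthest left at -1.27.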

How the data were processed

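RNA of 12 libraries, 3 in each of 4 groups read from the sample titles, was sequenced by the submitters. The authors deposited raw counts per gene. The submitters' processing notes name featureCounts 1.5.0-p3 and CASAVA 1.8.2. The aligner, and whether counting used strand, are not given in the sources used here, so antisense and overlapping genes cannot be told apart. FPKM values deposited by the authors entered no test. Log2 ratios and adjusted p-values from the authors' tests, in the same deposited table, are printed only where named. The notes name mm9, but 98.3% of gene positions equal GENCODE M21 on GRCm38, so coordinates are GRCm38. Date-like symbols (27) were restored through gene identifiers.

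Of 54532 genes, 14855 passed filterByExpr and entered edgeR 4.0.16 (R 4.3.3, TMM, 1 term per group, all 12 libraries sharing 1 estimate of the spread), contrasting the mean of the luteolin and quercetin terms with DMI. The fit was also run on simulated counts, drawn independently for each gene and library. Such counts hold no deviation shared across the genes of a library. The run therefore does not bear on how the calls move with single libraries. Replicates all differed by more than sampling noise (lowest chi-square per gene 2.79). Chi-square per gene was 2.79 to 5.02 between untreated libraries. Between replicates of an induced group it ran from 4.19 (luteolin libraries 1 and 2) to 109 (DMI libraries 2 and 3). The shared estimate of the spread includes the untreated libraries, and with only the 9 induced libraries 12 genes were called instead of 97. The members and the 29 gene lists were chosen with earlier results of these data known. Named genes were a panel of 19 genes by role, up to 10 largest falls and rises without overlap at 5 CPM or more, up to 3 called members of each list (or 2 abundant ones), and genes called for the class only or with the smallest p between compounds. Other genes are said to be chosen after their values were seen, or are given by counts. A few genes that the rule names are not reported here. Alternatives were RLE scaling, library totals, other filters, coding genes alone, DESeq2 1.42.0, voom in limma 3.58.1, the 9 induced libraries, a replicate block, 1 term for the class and leaving out libraries.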

Additional observations from a re-analysis of the deposited data

Results flagged for a closer look

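Among the 6 flavonoid libraries, 9 of the 87 named genes had 1 library whose gap to the nearest of the others, as a share of the whole range, passed Dixon's 95% critical value, and in all 9 it was quercetin library 3. Chance flags about 1 in 20 groups, and these genes share the library. Higher there than in the other 5 flavonoid libraries were Lamp1 at 2255 CPM (others up to 1668), Lamp2 at 2307 CPM (up to 1158), Ccng1 at 421 CPM (up to 252), Mdm2 at 5934 CPM (up to 4702), Cyp1b1 at 495 CPM (up to 376), Spp1 at 363 CPM (up to 154) and Ppargc1a at 41.6 CPM (up to 29.9). Lower were Hmox1 at 104 CPM (others from 219.9) and Cebpb at 73.5 CPM (from 145). None of these 9 genes was called in the class comparison. The same library had the lowest summed adipocyte marker level of the 9 induced libraries.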

How the results depend on the processing

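The 97 calls of the class comparison became 44 with library totals only, 58 with 1 CPM in 3 libraries, 48 with protein-coding genes only, 509 with DESeq2, 4 with limma-voom, 1151 without a low-count filter, 12 with only the 9 induced libraries, 13 with 1 term for the class and 0 with that term in the 9 induced libraries. RLE scaling gave 109, of which 96 were among the 97. The 1583 calls without the third DMI and luteolin libraries (an alternative chosen after seeing the data) and the 3965 without the third library of all induced groups leave fewer samples and a narrower spread. Leaving out single libraries gave 0 to 1992 calls. Same-numbered libraries correlated at 0.0682 to 0.590 in their deviations, not all over 0.1. Not every library correlated best with its own number, so the numbers were not taken as a pairing. The third libraries did correlate best with each other, at 0.590 (DMI and luteolin), 0.335 (DMI and quercetin) and 0.207 (luteolin and quercetin). With each first or second library of another group they correlated negatively, from -0.0841 to -0.472. Deviations within a group balance out, so these negative values follow in part from the positive ones and are not a separate observation. What the third libraries share was not tested. With the replicate block 724 genes passed, or 786 in the 9 induced libraries. Every one of the 97 genes kept its sign in all 26 alternatives in which it was tested. The alternatives reuse the counts that gave the calls, so the kept signs are not independent support. Between luteolin and quercetin the 0 calls became 3 with DESeq2, 450 without a filter, 14 with the replicate block, 123 with the block in the 9 induced libraries, 290 without the third DMI and luteolin libraries, 2081 without the third library of all induced groups, and 0 to 10 without single libraries. The 14 calls among listed genes became 8 with 1 CPM in 3 libraries, 0 and 3 with 1 term for the class (in 9 and in 12 libraries), 54 with DESeq2, 7 with library totals only, 0 with limma-voom, 149 without a filter, 4 in the 9 induced libraries, 9 among protein-coding genes, 86 with the block and 114 with the block in 9 libraries, 156 and 251 without the third libraries as above, and 0 to 175 without single libraries. Bst2, not called, turned from -0.25 to 0.61 without the third library of all induced groups. With 3 DMI libraries that differ widely, low-count genes such as Lep (12 counts in the class) carry the least precise values.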
